A study of Rattus norvegicus with 5 samples.

Results

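The genes described here encode 9 peptide hormones of the gut (*Nmu*, *Cck*, *Sct*, *Gip*, *Gcg*, *Pyy*, *Nts*, *Sst* and *Ghrl*) and chromogranin A (*Chga*), the granule protein that marks enteroendocrine cells. They were taken by name, and every gene probe (probe set) whose array annotation carries 1 of the 10 names was used. This gave 9 gene probes for 9 genes, out of 15866 gene probes on the array. *Nts*, which encodes neurotensin, carried no gene probe in the annotation used here and was not analysed. The RNA came from the small intestine of male Wistar rats that were 6 weeks old when the diets began. A control group ate the recorded full intake, and 4 groups had calorie restriction (CR) of 5, 10, 20 or 30%, all for 1 month on the AIN-93G powdered diet. All rats, controls included, were dissected after a 16 h fast, and RNA of the 5 rats of each group was pooled and hybridized to 1 array. There is thus 1 array per level and no replicate, and the spread between rats cannot be seen. The sample labels do not name the part of the small intestine, and genes that mark a region are given below.

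Enteroendocrine cells are scattered single cells of the gut epithelium that sense nutrients in the lumen and release peptides from dense-core granules. The peptides are cut from larger precursors and act on digestion, insulin release, gut movement and appetite. *Cck*, *Sct*, *Gip* and *Ghrl* are known mainly from the upper gut, *Gcg* (the precursor of GLP-1 and GLP-2) and *Pyy* mainly from the ileum and colon. *Sst* is made by D cells and also by enteric neurons. *Nmu* encodes neuromedin U, a gut and brain peptide that contracts smooth muscle and reduces feeding in rats. In whole-tissue RNA, fewer cells of a type and less RNA per cell cannot be told apart. Nor can the arrays show which cells made the *Nmu* RNA.

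Promoter sequences of RefSeq (build GRCr8) were matched for 7 of the 10 genes by symbol. *Cck*, *Sct* and *Chga* had no entry. The 250 bases before the annotated start are shown for *Nmu* and *Gip*, because these had the largest and the smallest spread over the arrays among the hormone genes that passed the signal filter described below. Both are on the plus strand, *Nmu* at chr14:32198693-32198942 and *Gip* at chr10:81464820-81465069. Capitals mark the motifs that were searched on both strands.
*Nmu*: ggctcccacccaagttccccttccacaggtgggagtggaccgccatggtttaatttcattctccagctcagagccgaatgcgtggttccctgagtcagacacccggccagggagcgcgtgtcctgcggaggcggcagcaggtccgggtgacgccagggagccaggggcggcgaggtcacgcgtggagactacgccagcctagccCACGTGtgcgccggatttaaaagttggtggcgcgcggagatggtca
*Gip*: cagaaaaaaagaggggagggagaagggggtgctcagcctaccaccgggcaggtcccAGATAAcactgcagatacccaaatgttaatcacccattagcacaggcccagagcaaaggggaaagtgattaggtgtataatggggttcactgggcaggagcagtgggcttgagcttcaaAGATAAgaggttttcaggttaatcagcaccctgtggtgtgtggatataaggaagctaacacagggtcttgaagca
The *Nmu* window held the E-box form CACGTG at 1 place, which begins at −46 from the annotated start. That motif lay in 5.59% of the 33469 rat promoters in the table and in no other of the 7 windows. The *Gip* window held the GATA motif (AGATAA) at −194 and at −75, and 10.3% of all promoters hold it. The TATA box letters TATAAA (in 12.9% of all promoters) were found in the *Gcg* window alone. The full cyclic AMP response element (TGACGTCA, 1.59%) was found in none of the 7 windows. Only these exact letters were searched, in the 250 bases before 1 annotated start per gene. Other forms of a motif, or a motif placed by another start, would be missed, so a missing match does not show that a promoter lacks the element. The motifs do not overlap one another. A match describes the letters only, since the arrays measured neither binding nor promoter activity.

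The signals are MAS5 intensities on a linear scale, and all 5 arrays had the same mean of 132 after the lowest and highest 2% were left out. The medians lay between 45 and 49.1, and log2 signals correlated between arrays at 0.97 to 0.99 over the 7933 gene probes that passed a filter on weak signals (mean log2 signal of at least 5.54, a signal of 46.5). For beta-actin, the ratio of the 3' to the 5' gene probe, which rises as RNA breaks down, was 3.18 on the 20% CR array and 2.20 to 2.41 on the other 4, while for *Gapdh* it was 1.27 on the 20% CR array and 1.21 to 1.4 on the other 4. Of the 9 gene probes, 7 passed the filter (*Nmu*, *Cck*, *Sct*, *Gip*, *Sst*, *Ghrl* and *Chga*), and those of *Gcg* and *Pyy* did not. The labelled tissue was checked against 18 marker genes of small intestine epithelium, of which 13 had a gene probe and all 13 passed the filter. *Chga* and 5 of 13 other granule and processing genes passed it as well.

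*Nmu* was the only hormone gene with a lower signal on each CR array than on the control array. Its signal was 228.4 in the control pool, then 157.0, 170.8, 180.7 and 113.0 with 5, 10, 20 and 30% CR. All 4 CR arrays lay below the control, as they did for 20.6% of the kept gene probes. The 30% CR array was lowest. From 5 to 10 to 20% CR the signal rose with restriction, so the fall did not grow step by step. The CR signals were 68.7, 74.8, 79.1 and 49.5% of the control signal, or log2 ratios of −0.54, −0.42, −0.34 and −1.02. These are ratios of the deposited signals. The log ratios that the authors printed for this gene probe came from an algorithm of their array software. They show a larger fall at every level, with no rise from 5 to 20% CR. In the deposited signals, the *Nmu* ratio at 30% CR was the only one among the 7 kept hormone genes that reached 1 in size. A ratio below that of *Nmu* was found for 2.89, 5.18, 14.2 and 0.30% of the kept gene probes at 5, 10, 20 and 30% CR. Over all kept gene probes, a log2 ratio of −1 or below was found for 0.214, 0.214, 0.63 and 0.34% at 5, 10, 20 and 30% CR, and a ratio of 1 or above, which no hormone gene had, for 0.366, 0.454, 0.504 and 0.744%.

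In the mean of the CR pools, *Nmu* was 0.670-fold of the control (log2 −0.58, standard error 0.25, 95% interval 0.457 to 0.982-fold; SD over the 4 levels 0.30). The control pool is assumed in this fit to vary like the CR pools, whose spread gives the 3 residual degrees of freedom. The unadjusted p was 0.042 and the adjusted p = 0.988 (limma, two-sided, Benjamini-Hochberg over the 7933 gene probes), so the difference did not pass. No gene probe of the array passed in that comparison (0% higher and 0% lower), and 2.71% were higher and 2.05% lower at an unadjusted p below 0.05, with *Nmu* the 1 hormone gene among those lower. The slope of *Nmu* over the 5 arrays was −0.24 per 10% restriction (log2, standard error 0.086, unadjusted p = 0.0179, limma adjusted p = 0.998). In the trend again no gene probe passed (0% rising, 0% falling), and at an unadjusted p below 0.05 the slope was positive for 1.55% and negative for 1.54%, with *Nmu* the 1 hormone gene among the negative ones. The slope rests in part on the array with the strongest restriction and was −0.11 (standard error 0.13) without the 30% CR pool and −0.18 (standard error 0.11) without the control pool.

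Counted by size over all 4 levels, no hormone gene was past 0.5 (log2) in a single direction, against 0.769% of the kept gene probes higher and 0.34% lower. *Nmu* alone of the 7 was lower by at least 0.3 at each level, as were 1.85% of all kept gene probes. By sign alone, *Gip* and *Chga* were above the control on all 4 CR arrays, as were 19% of the kept gene probes, and *Nmu* was below it on all 4, as were 20.6%. The 4 ratios share the control array, so a deviation of that array alone moves all of them.

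**Figure D1:**
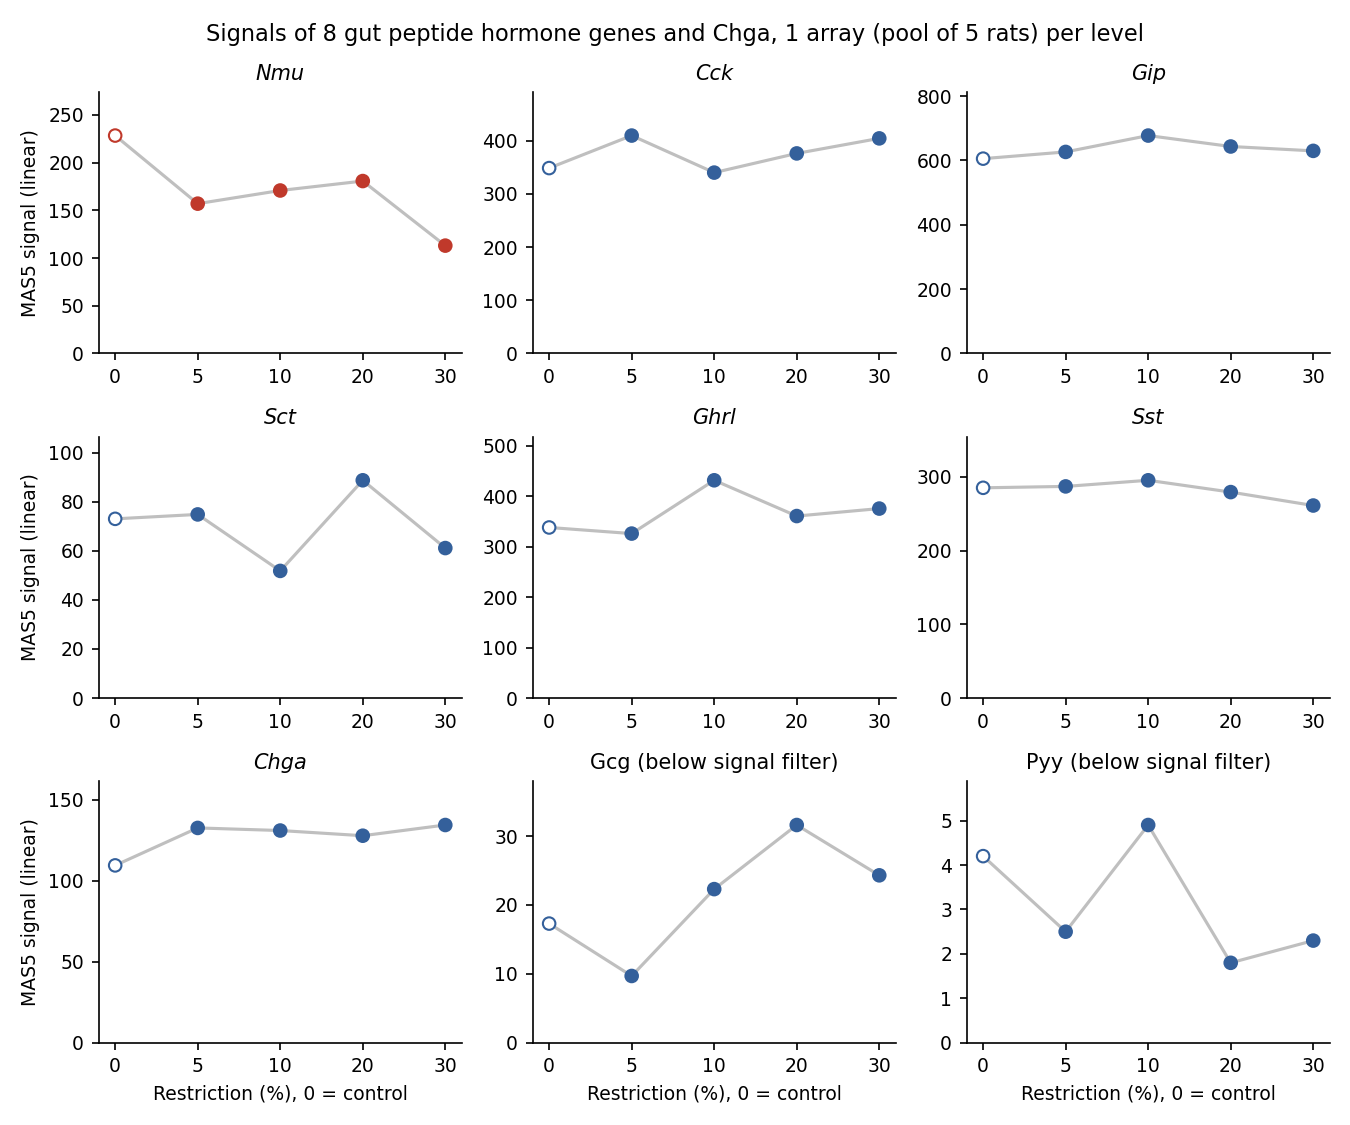
MAS5 signal (linear scale from 0, a separate scale in each panel) of the 9 genes on the control array (open point) and the arrays of 5, 10, 20 and 30% CR (filled points; levels are spaced evenly, and each point is 1 pool of 5 rats). *Nmu* was 228.4 on the control array and between 113.0 and 180.7 on the CR arrays, *Gip* and *Sst* stayed nearly level, and *Gcg* and *Pyy* lay below the signal filter.

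Of the upper gut peptides, *Gip* varied least over the arrays and *Sct* most, and none passed the test. *Gip*, which encodes the incretin hormone of K cells, had a signal of 605.7 in the control pool, then 626.6, 677.5, 643.5 and 629.9 with 5, 10, 20 and 30% CR. All 4 CR arrays lay above the control, the highest at 112% of it. The mean of the CR pools was 1.06-fold of the control (95% interval 0.867 to 1.30-fold, limma adjusted p = 0.988). The range over the 5 arrays was 0.16 on the log2 scale, and 4.92% of the kept gene probes had a smaller one. The median range of all kept gene probes was 0.43.

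*Cck* encodes cholecystokinin, which empties the gall bladder, stimulates pancreatic secretion and reduces meal size. Its signal was 348.7 in the control pool, then 409.9, 340.2, 376.3 and 404.6 with 5, 10, 20 and 30% CR, with the 10% CR array just below the control and the other 3 above it. The mean of the CR pools was 1.10-fold (95% interval 0.860 to 1.39-fold, limma adjusted p = 0.988). *Ghrl* encodes ghrelin, the stomach peptide that stimulates feeding and is also made in the upper small intestine. Its signal was 337.8 in the control pool, then 325.7, 431.2, 360.4 and 375.2 with the 4 levels of CR. Only the 10% CR array stood out, at 128% of the control, and the mean of the CR pools was 1.10-fold (95% interval 0.842 to 1.43-fold, limma adjusted p = 0.988). Its slope over the restriction was 0.045 per 10% (log2, standard error 0.065).

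*Sct*, the gene of secretin, which drives bicarbonate secretion by the pancreas, varied in both directions. The signal was 73.0 in the control pool, then 74.8, 51.8, 88.7 and 61.1 with 5, 10, 20 and 30% CR. It was lowest at 10% and highest at 20% CR, with log2 ratios of −0.49 and 0.28, and the control lay between them. Its range of 0.78 (log2) was larger than that of 88.6% of the kept gene probes, and for *Nmu* that share was 96.2%. The mean of the CR pools was 0.927-fold of the control (95% interval 0.585 to 1.47-fold, limma adjusted p = 0.991). On the same arrays, the summed signal of 13 epithelial markers was 12015 at 10% and 18455 at 20% CR (12744 on the control array), and that of 10 Paneth cell markers was 7440 at 10% CR and 4181 to 4661 on the other CR arrays (4259 on the control array). Their part in the *Sct* values was not tested.

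*Sst*, the gene of somatostatin, which inhibits the release of most gut hormones, had a narrow range like *Gip*. The signal was 285.0 in the control pool, then 286.9, 295.2, 279.2 and 261.0 with 5, 10, 20 and 30% CR. The control lay within the CR arrays, and the lowest value, at 30% CR, was 91.6% of it. The mean of the CR pools was 0.984-fold (95% interval 0.779 to 1.24-fold, limma adjusted p = 0.995), and 6.56% of the kept gene probes had a smaller range than its 0.18 (log2). The intervals of *Gip* and *Sst* leave room for a difference of about this width in either direction, so they do not show that CR left these genes as they were.

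*Chga* was higher on all 4 CR arrays, by nearly the same amount on each. Its signal was 109.4 in the control pool, then 132.5, 130.9, 127.7 and 134.3 with 5, 10, 20 and 30% CR. The log2 ratios were 0.28, 0.26, 0.22 and 0.30 (mean 0.26, SD over the levels 0.031), or 1.2-fold with a 95% interval of 0.915 to 1.57-fold (limma adjusted p = 0.988). The SD over the levels describes the CR arrays alone and holds nothing of the error of the control array. *Chgb*, the gene of the related granule protein chromogranin B, lay below the control on all 4, at 285.8 in the control pool, then 248.9, 242.9, 253.3 and 244.0 with the 4 levels of CR. Its log2 ratios were −0.20, −0.23, −0.17 and −0.23 (limma adjusted p = 0.988), and the log2 ratio of *Chga* exceeded that of *Chgb* by 0.48, 0.49, 0.40 and 0.52. The difference between the granins was not tested.

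The hormones of the lower gut were weak. *Gcg* had a signal of 17.3 in the control pool, then 9.7, 22.3, 31.6 and 24.3 with 5, 10, 20 and 30% CR. It lay below the control at 5% CR and above it at the other levels, with a 95% interval of 0.411 to 3.31-fold for the mean of the CR pools in the fit without a filter. *Pyy*, the gene of peptide YY, which slows transit and reduces feeding, had 4.2 in the control pool, then 2.5, 4.9, 1.8 and 2.3 with the 4 levels of CR. Signals of this size vary widely under MAS5, and neither gene entered the adjusted test. The ileal genes *Fabp6*, a bile acid-binding protein, and *Slc10a2*, the ileal bile acid transporter, were also below the filter, at 8.3 to 24.0 and 5.5 to 21.9 over the 5 arrays. The duodenal transcription factor *Pdx1* passed the filter, at 154.2 to 228.0.

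**Figure D2:**
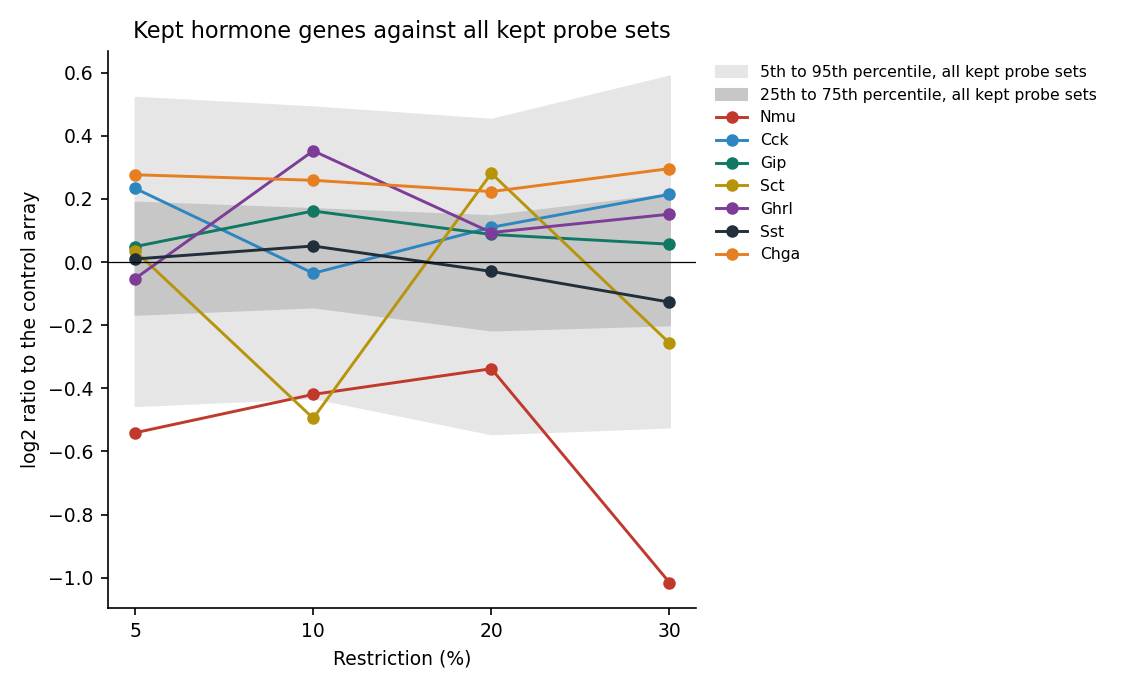
Log2 ratio to the control array of the 7 hormone genes that passed the signal filter, at 5, 10, 20 and 30% CR (1 array per level, levels spaced evenly). The light band holds the 5th to 95th and the dark band the 25th to 75th percentile of the 7933 kept gene probes. *Nmu* lay below the light band at 5 and 30% CR and *Sct* at 10% CR, and the other 5 genes lay within it at every level.

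Over the 7 kept genes the median log2 ratio was 0.035, 0.051, 0.093 and 0.057 at 5, 10, 20 and 30% CR, and that of all kept gene probes 0.0048, 0.0059, −0.030 and 0.0012. In the mean of the levels 4 of the 7 were positive and 3 negative, where 49.1% of all kept gene probes were positive. Without *Nmu*, the 6 other genes lay between −0.053 and 0.28 at 5% CR and between −0.26 and 0.30 at 30% CR. *Nmu* was lower than each of them at 5, 20 and 30% CR. At 10% CR *Sct* was lower still, with −0.49 against −0.42 for *Nmu*.

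Among the 6898 other kept gene probes with 1 gene name, the ratios most like those of *Nmu* were those of *Fntb*, the beta subunit of protein farnesyltransferase, with a root mean square difference of 0.087 (log2) over the 4 levels. *Usp8*, a deubiquitinase of endosomes, followed with 0.095 and *Mlxipl*, a glucose-responsive transcription factor, with 0.11. The *Mlxipl* signal was 241.6 in the control pool, then 164.9, 192.3, 190.2 and 136.8 with 5, 10, 20 and 30% CR, likewise lowest at 30%. The likeness was measured on 4 ratios to a shared control and is a description.

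The receptors of the hormones were nearly all weak, with 2 of 19 gene probes above the filter. For *Sstr3*, a somatostatin receptor, the 4 log2 ratios were 0.21, 0.39, 0.29 and 0.30 (limma adjusted p = 0.988), and *Sort1*, a sorting receptor that binds neurotensin, had a mean of 0.026. Of the 17 below the filter, 7 were past 0.5 (log2) in a single direction at all 4 levels, 4 of them higher and 3 lower. *Nmur1*, the receptor of neuromedin U in peripheral tissues, was among the 3 lower. Its signal was 70.7 in the control pool, then 28.8, 34.9, 25.6 and 21.0 with the 4 levels of CR, which is 40.7, 49.4, 36.2 and 29.7% of the control. Only the control signal exceeded 46.5, and *Nmur1* did not enter the adjusted test. *Nmur2*, the other receptor of neuromedin U, had log2 ratios of 0.057, 2.23, 2.46 and 1.24 at signals of 2.5 to 13.8. The others that were lower were *Ntsr2*, a neurotensin receptor (−1.98 to −0.65), and *Gcgr*, the glucagon receptor (−0.95 to −0.54). Their signals were only 7.1 to 28.1 and 1.5 to 2.9 over the 5 arrays. *Gipr*, the GIP receptor, was higher (3.73 to 4.33), and so was *Npy5r*, a receptor of the neuropeptide Y family (1.58 to 3.55). Both had a signal of 1.0 on the control array. *Cckbr*, a cholecystokinin and gastrin receptor, was higher too (signals of 16.1 to 29.2 on the CR arrays and 8.0 on the control array). So was *Sstr1*, a somatostatin receptor (0.74 to 1.13). Of all gene probes below the filter, 5.24% were lower and 7.97% higher by this limit of 0.5 at all 4 levels. At a limit of 1 the shares were 2.36% lower and 4.17% higher. *Nmur1* passed that limit downward, and *Gipr*, *Npy5r* and *Cckbr* passed it upward. Neither of the 2 weak hormone genes was past these limits.

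**Figure D3:**
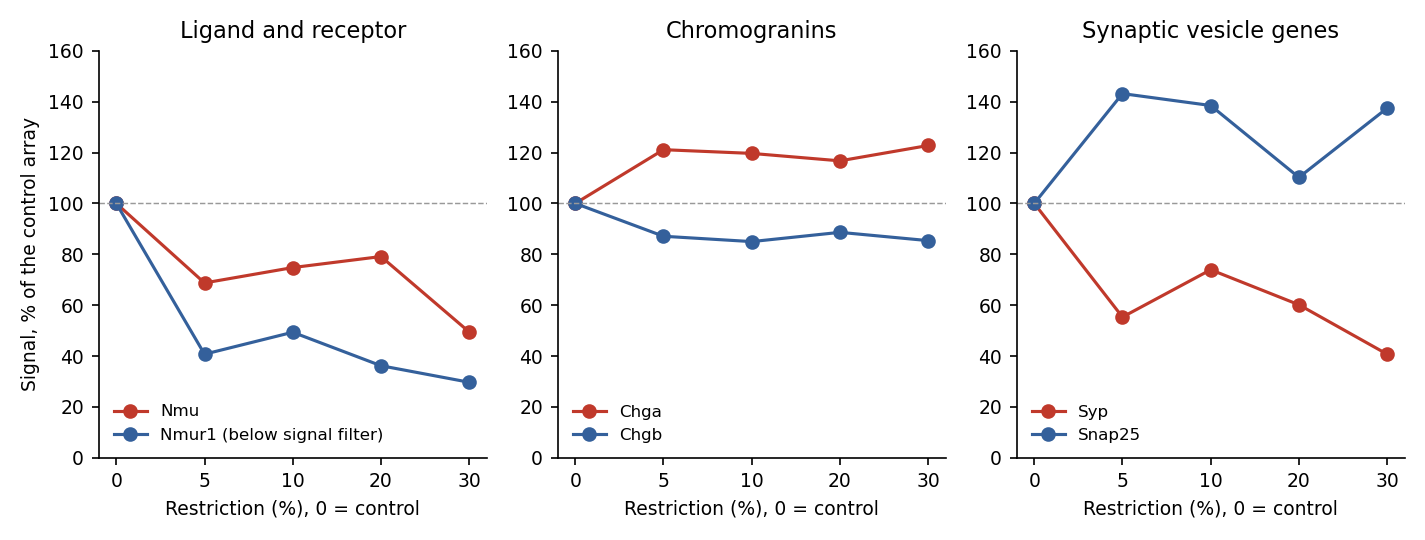
Signal in percent of the control array (linear axis from 0) for *Nmu* and its receptor *Nmur1*, for the granule genes *Chga* and *Chgb*, and for the synaptic vesicle genes *Syp* and *Snap25*, on the control array and at 5, 10, 20 and 30% CR (1 array each, levels spaced evenly). *Nmu* and *Nmur1* were below the control on all 4 CR arrays, *Chga* was above and *Chgb* below it on all 4, and *Nmur1* lies below the signal filter.

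None of the other genes of peptide secretion passed the test, and in some 1 array stood apart. Of 17 other gut and enteric peptides with a gene probe, 7 passed the filter, of which 5 had a mean log2 ratio above 0 and 2 below it (median 0.16, and −0.095 without the filter), and none was called in limma. *Guca2b*, the gene of uroguanylin, which regulates salt and water secretion, was highest, with a mean of 0.32 that rests mainly on the 20% CR array (0.82, and 0.085 to 0.20 at the other levels). *Cartpt*, a neuropeptide precursor, was lowest, with −0.21. Of the 5 kept granule and processing genes, *Resp18*, a secretory granule protein, was highest with 0.095 and *Chgb* lowest with −0.21. *Cpe*, the carboxypeptidase that trims prohormones after cleavage, had −0.066. *Pam*, which amidates peptides, had log2 ratios of 0.28, 0.15, −0.64 and 0.46, low on the 20% CR array alone, and *Npy*, the gene of neuropeptide Y, had 0.25, 0.39, 0.63 and −0.10. The 20% CR array also had the highest beta-actin 3' to 5' ratio (3.18), while its *Gapdh* ratio (1.27) lay within those of the other arrays. The part of RNA quality in values that stood out on that array was not tested. The 3 kept genes of amine synthesis and breakdown lay between −0.047 (*Maob*) and −0.25 (*Maoa*), both monoamine oxidases, with *Ddc*, which makes serotonin and dopamine from their precursors, at −0.060. None of them was called in limma (0 higher and 0 lower).

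Of the transcription factors of enteroendocrine cells, 2 of 9 passed the filter. *Sox4* had a mean log2 ratio of 0.27 (limma adjusted p = 0.988) and *Foxa2* −0.23, and *Neurog3* and *Neurod1*, which specify these cells, were below the filter at signals of 1.8 to 5.0 and 13 to 18.9. The nutrient sensors with a gene probe were few, and 2 of 7 passed. *Slc15a1*, the peptide transporter, had a mean log2 ratio of 0.55 and *Slc5a1*, the sodium-glucose transporter, 0.51 (limma adjusted p = 0.988 each). Both are brush border transporters of enterocytes as well, and both were highest on the 20% CR array, where the summed epithelial markers, *Slc5a1* among them, were also highest. Among 12 kept enzymes that degrade peptides, 6 were positive and 6 negative (median 0.0052). *Enpep*, an aminopeptidase that cleaves angiotensin II, was highest with 0.61 and *Dpp9*, a cytosolic dipeptidyl peptidase, lowest with −0.40. *Dpp4*, which inactivates GLP-1 and GIP in blood and at cell surfaces, had log2 ratios of 0.15, −0.18, 0.34 and 0.11. No member of these lists was called in limma. Below the filter, some genes of secretion were past 0.5 at all 4 levels, at signals of at most 41.3. *Vgf* and *Ptprn*, of secretory granules, *Pax4*, an endocrine transcription factor, *Casr*, the calcium-sensing receptor, and *Kcnj11*, a potassium channel, were higher, and *Pax6*, another endocrine transcription factor, was lower.

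Markers of other cells and tissues on the same arrays are given because the hormones also occur in neurons, pancreatic islets and stomach. Of 16 enteric neuron markers 4 passed the filter, 2 with a positive and 2 with a negative mean, and their summed signal was 531 to 611 on the CR arrays and 557 on the control array. They did not move together. *Syp*, a vesicle protein of neurons and endocrine cells, was lower on each CR array, with log2 ratios of −0.85, −0.44, −0.73 and −1.30 (limma adjusted p = 0.974), and *Snap25*, of the vesicle fusion machinery, was above the control on each (mean 0.40). None of 5 glial markers passed. Of the 12 neuron markers below the filter, *Nefm*, a neurofilament, was higher and *Ncam1*, an adhesion molecule, lower by at least 0.5 at all 4 levels.

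Exocrine pancreas markers stood out on the control array. The summed signal of 14 genes was 536 to 725 on the CR arrays and 1308 on the control array, and *Prss1*, a trypsinogen, had 2.4 to 71.2 on the CR arrays and 174.3 on the control array. *Prss1* and the 11 other markers below the filter (*Amy2a3*, *Prss2*, *Cpa1*, *Cpb1*, *Cela2a*, *Pnlip*, *Pnliprp1*, *Ctrb1*, *Ctrc*, *Cel* and *Clps*) were each lower by at least 0.5 (log2) on all 4 CR arrays, while *Cela1*, an elastase, and *Reg1a*, a regenerating protein, passed the filter with mean log2 ratios of −0.15 and 0.017. Of the islet genes, *Ins1* had 31.5 to 43.1 on the CR arrays and 36.2 on the control array, *Ins2* 3.5 to 10.8 and 3.7, and *Iapp* 2.3 to 4.3 and 1.8. Those 3 were weak on all arrays, and none had its highest signal on the control array. *Nmu* was also highest on the control array, as were 20.6% of the kept gene probes, and so was the weak *Nmur1*. The part of pancreatic RNA in the *Nmu* values was not tested. The 9 stomach markers with a gene probe were all below the filter (sum 98.7 to 148 on the CR arrays and 124 on the control array), and the acid pump gene *Atp4a* had 8.3 to 15.3 and 11.2. Of these 9, *Pgc*, *Cblif* and *Gkn1* were higher and *Tff2* lower by at least 0.5 at all 4 levels, at signals of at most 24.5.

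Markers of the proximal small intestine were lower on balance at 30% CR, where *Nmu* was lowest. Of 9 kept genes 2 had a mean log2 ratio above 0 and 7 below it (median −0.30, and −0.034 without the 30% CR pool), none was called in limma, and the median per level was −0.012, −0.14, 0.042 and −0.39 at 5, 10, 20 and 30% CR. *S100g*, a calcium-binding protein of duodenal enterocytes, was lowest with −0.42 and *Fabp1*, a fatty acid-binding protein, highest with 0.46. *Pdx1*, a duodenal transcription factor, had −0.12, −0.44, −0.46 and −0.56, and *Gata4*, which marks the jejunum and duodenum, stayed level at its brighter gene probe (−0.012, −0.074, 0.042 and −0.018) and was lower at a weak one. Of the upper gut hormones, *Cck*, *Gip* and *Ghrl* had mean log2 ratios of 0.13, 0.089 and 0.14, and *Sct* had −0.11. Smooth muscle markers, which follow the muscle layer, had summed signals of 11328, 15453, 13023 and 11366 at the CR levels and 14157 on the control array, and those of 6 goblet cell genes were 16279 to 20292 on the CR arrays and 19198 on the control array.

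The remaining marker lists give the setting of the hormone values, and none of their genes was called in limma. In the epithelium 5 of 13 kept genes had a mean above 0 and 8 below it (median −0.091), with *Fabp2*, a fatty acid-binding protein, at 1.03 (limma adjusted p = 0.183) and *Akp3*, an intestinal alkaline phosphatase, at −1.07 (0.988), both past 0.5 at all 4 levels. *Fabp2* was thus higher on every CR array and *Akp3* lower, within the same cell type. Smooth muscle genes lay between 0.029 (*Smtn*, smoothelin) and −0.39 (*Des*, desmin), 9 of 10 below 0. Among the 6 genes on the goblet cell list, *Zg16*, a mucus protein, was highest with 0.076 and *Clca4* lowest with −1.02. *Clca4* alone of these 6 was past 0.5 at all 4 levels. Paneth cell genes had 5 of 6 kept means above 0, between 0.38 (*Pla2g2a*, an antimicrobial phospholipase) and −0.054 (*Reg3b*, a lectin). For the distal small intestine 1 of 7 genes passed the filter, *Mep1b*, a brush border protease, with 0.39. For the colon 2 of 6 passed, *Car4*, a carbonic anhydrase, with 0.92, past 0.5 at all levels, and *Slc26a3*, a chloride exchanger, with −0.036. Below the filter, the colon gene *Scnn1g*, a sodium channel subunit, and the Paneth cell gene *Np4*, a defensin, were lower by at least 0.5 at all 4 levels. For the endocrine pancreas 1 of 5 passed, *Slc2a2*, a glucose transporter that enterocytes also use, with −0.052. The part of the sampled region and of the cell mixture in the *Nmu* values was not tested.

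**Figure D4:**
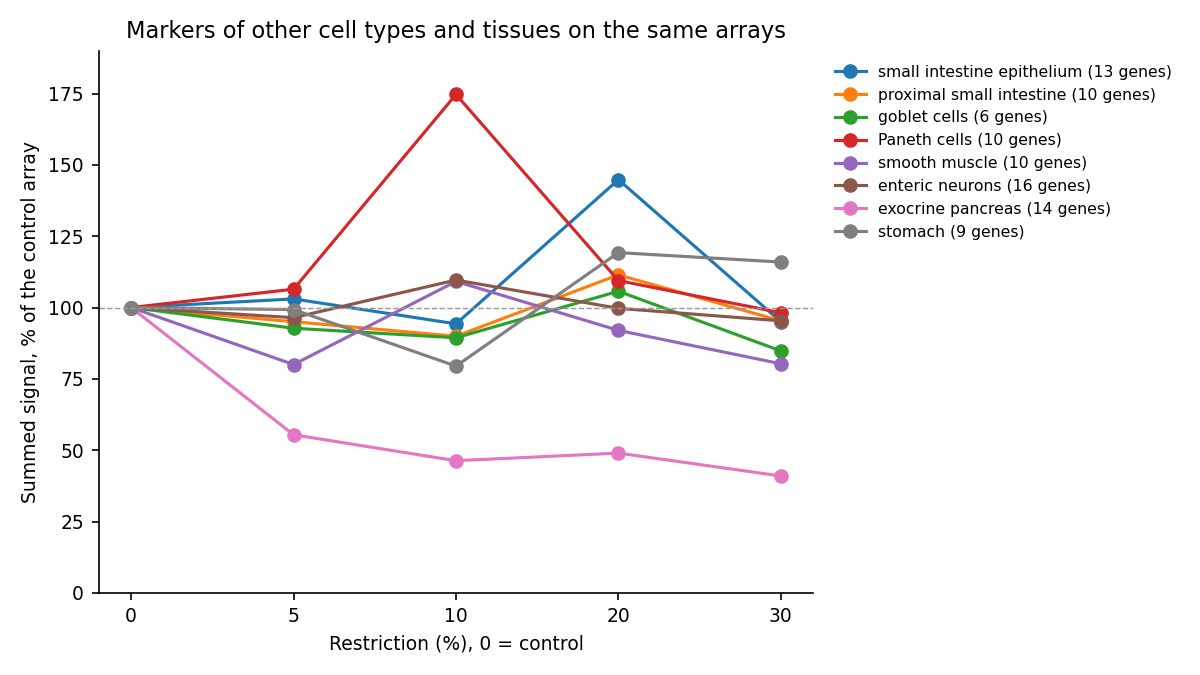
Summed signal of marker genes in percent of the control array (linear axis from 0) for 8 cell types or tissues, on the control array and at 5, 10, 20 and 30% CR (1 array each, levels spaced evenly; numbers of genes with a gene probe in the legend). The exocrine pancreas sum was lower on all 4 CR arrays, the epithelial sum was highest at 20% CR and the Paneth cell sum at 10% CR.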

How the data were processed

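RNA of the 5 rats on each diet was pooled by the authors, and each pool went onto 1 Affymetrix GeneChip for the rat. Deposited were MAS5 signal intensities on a linear scale, scaled by the authors to a common trimmed mean. The value to which they scaled was not stated. Scaling removes any difference in total RNA, and MAS5 subtracts mismatch signals, so weak signals vary widely. The number of arrays limits the precision.

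Signals below 0.1 were set to 0.1 before log2, and 57 array controls were dropped. Of 15866 gene probes 12783 carry 1 gene name in the platform annotation, 312 carry several and 2771 carry none. Gene probes with a mean log2 signal at or above the median were kept. The mean of the CR pools against control, and a linear trend over the percent of restriction, were fitted with limma 3.58.1 in R 4.3.3 (two-sided moderated test, eBayes trended on signal, p adjusted by Benjamini-Hochberg across all 7933 kept gene probes, threshold 0.05, 3 residual degrees of freedom). The fits were also run on simulated data with the same SD for every gene probe. That setting is simpler than the arrays and does not show how the fits perform on them. Standard errors of gene probes below the filter come from the fit without a filter.

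All gene probes of the 10 genes are named, and from each of 19 companion lists the highest and lowest kept mean ratio and any gene, kept or weak, past 0.5 at all 4 levels, with the 3 ratios most like *Nmu*. *Nmur2*, *Dpp4*, *Cpe*, *Pam*, *Npy*, *Ddc*, *Pdx1*, *Gata4*, *Atp4a*, *Neurog3*, *Neurod1* and the weak ileal and islet genes were named after their values were seen. Genes and lists were chosen with earlier results of these data known. A list uses the brightest gene probe of each gene. Alternatives were 2 other scalings, an added constant, other filters and size limits, another variance prior, the rank of the level, and each pool left out. The authors' detection and change calls are not analysed here.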

Additional observations from a re-analysis of the deposited data

How the results depend on the processing

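No hormone gene was called in limma under any alternative, in either the comparison with the control or the trend. Counted at a log2 ratio of at least 0.5 in place of 1, *Nmu* was 1 gene past the size at 5% CR (0 at the limit of 1). With a constant added before log2 (the 25th percentile of the signals) 0 genes were past it at 30% CR in place of 1, since the ratio of *Nmu* was then −0.94. Without the filter, 1 weak gene, *Pyy*, was lower past it at 20% CR. At a limit of 0.3 in place of 0.5 over all levels, 1 gene, *Nmu*, was lower. The mean log2 ratio of *Nmu* was −0.66 to −0.43 and its slope −0.30 to −0.11 with each pool left out. Some values near 0 changed sign when a pool was left out: the mean of *Sct* ranged over −0.24 to 0.020 and that of *Sst* over −0.049 to 0.010, the slope of *Sct* over −0.085 to 0.11 and that of *Gip* over −0.012 to 0.046. The cause was not tested. The mean ratio cannot be formed without the control pool. No paired analysis was possible because each diet has a single pool of its own rats. Of 167 alternative values for list medians 157 moved by less than the spread. The 10 that moved more were mostly from the fit without the filter: other peptides −0.095 (0.16 with it), amine genes −0.16 (−0.060), transcription factors −0.16 (0.020), receptors 0.026 (0.16), exocrine pancreas −2.88 (−0.066), endocrine pancreas 0.68 (−0.052), distal small intestine 0.72 (0.39) and colon −0.18 (0.44). The colon median was −0.036 with the stricter filter, and the proximal median −0.034 without the 30% CR pool (−0.30 with it). With 1 array per level, differences of the size seen for *Chga* cannot be told from the error of a single array.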
